A study of Mus musculus with 16 samples.

Results

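The Hox genes of the Hoxa, Hoxb, Hoxc and Hoxd clusters were described in the fetal adrenal glands of mice with and without Dicer in Sf1-expressing cells. Every gene whose symbol is Hoxa, Hoxb, Hoxc or Hoxd followed by digits was taken, which gave 33 of the 18193 genes that had a probe set of their own on the array. Each was represented by its brightest probe set on average, and 19 of the 33 were bright enough to be tested. A further 3 probe sets that read either Hoxb7 or Hoxb8, or either Hoxd3 or Hoxd4, were not used.

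Whole fetal adrenals on a C57BL/6 background were collected at E15.5 and E16.5 and profiled on Affymetrix Mouse430_2 arrays. The knockouts (KO) were Sf1-Cre/Dicer lox/lox, and the controls, labelled WT, were their littermates without Cre. Breeders carried 1 or 2 floxed Dicer alleles, and the labels do not give the Dicer alleles of the control pools. Each array read a pool of the glands of 1 genotype from 1 litter, with 4 litters per stage, so each of the 4 groups held 4 arrays. The Cre transgene follows Sf1, a factor of the adrenal cortex and gonad, so that the chromaffin, capsular, vascular and blood cells of the gland were not its target.

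Hox genes encode homeodomain transcription factors that give cells a position along the body axis. They lie in 4 clusters, and genes at the 3′ end of a cluster (low paralogue numbers) are switched on further forward than genes at the 5′ end (high numbers). Their proteins bind DNA with the cofactors Pbx, Meis and Prep (Pknox), Polycomb and Trithorax proteins keep them off or on, and a Hox, Pbx and Prep complex has been reported to act on the fetal adrenal enhancer of Nr5a1, the gene of Sf1. MicroRNA genes of the miR-10 and miR-196 families sit inside the Hox clusters, their products have been reported to repress several Hox mRNAs, and Dicer is the enzyme that cuts these microRNAs from their hairpins.

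The mature microRNAs of both families are shown because Dicer makes them and because their genes lie between the Hox genes described here. They come from RefSeq on build GRCm38.p6, 5′ to 3′, with the seed (bases 2 to 8) in capitals. The array values give mRNA, and neither microRNA levels nor target sites were analysed here.
mmu-miR-10a-5p: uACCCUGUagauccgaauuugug
mmu-miR-10b-5p: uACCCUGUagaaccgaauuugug
mmu-miR-196a-5p: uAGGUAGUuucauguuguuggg
mmu-miR-196b-5p: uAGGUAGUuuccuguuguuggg
The 4 sequences held 2 distinct seeds, ACCCUGU for miR-10 and AGGUAGU for miR-196, and the members of each pair differed at 1 base outside the seed. Mature miR-10a maps to chr11:96317186-96317208 on the plus strand, inside the annotated span of Hoxb3 and 1058 bases before the start site of Hoxb4. Mature miR-10b maps to chr2:74726074-74726096 on the plus strand, inside the annotated spans of Hoxd3 and Hoxd4. The miR-196a sequence is encoded at chr11:96265187-96265208, between Hoxb13 and Hoxb9, and again at chr15:102973365-102973386, between Hoxc10 and Hoxc9, both on the plus strand. The miR-196b sequence lies at chr6:52230129-52230150 on the minus strand, between Hoxa9 and Hoxa10.

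The promoter of Hoxb4 is shown because Hoxb4 passed at E16.5 under every alternative run. These are the 250 bases before its start site in RefSeq, chr11:96318017-96318266 on the plus strand of GRCm38.p6, with each CpG in capitals.
Hoxb4: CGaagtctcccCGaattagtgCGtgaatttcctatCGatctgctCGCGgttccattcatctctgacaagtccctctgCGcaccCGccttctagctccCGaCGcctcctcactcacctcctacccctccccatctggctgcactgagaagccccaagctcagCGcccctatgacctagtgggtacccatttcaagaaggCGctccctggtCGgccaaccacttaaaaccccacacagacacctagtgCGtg
The stretch held 14 CpG and 58.0% G and C. Promoters of 19 of the 33 Hox genes were in the table, as 21 windows of the same length, and their median was 13 CpG, against 6 over all 32851 promoters. The 10 promoters of detected Hox genes had a median of 10 CpG and the 11 of undetected ones a median of 20. On both strands the Hoxb4 window held none of the letters TGATNNAT (a Pbx and Hox composite), TATAAA or CCAAT. These were found in 7.68%, 12.4% and 33.8% of all promoters, and in 14.3%, 9.52% and 52.4% of the Hox windows. Of the detected genes Hoxb2, Hoxb3, Hoxb5, Hoxb6, Hoxb9, Hoxc5, Hoxc6, Hoxc8 and Hoxc9 were not among the promoters read.

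Values are log2 signals, and a difference of 1 is a doubling. Probe sets differ in how brightly they hybridise, so levels order genes only loosely, and differences between groups are made within a probe set. Dicer1 signal ran from 8.0 to 8.42 in KO and from 8.45 to 8.83 in control pools, a difference of -0.36 averaged over both stages (adjusted p = 0.00312). Mean signal over all probe sets was 6.35 to 6.37 in KO and 6.3 to 6.32 in control arrays. One array stood apart. In control E16.5 replicate 2 the 3′ control probe sets exceeded the 5′ ones by 3.15, against 0.19 to 1.62 in the other 15 arrays. This is a sign of RNA quality. The counts of Hox genes passing at E16.5, and some single genes, are therefore given with and without that array. Other results at E16.5, among them those of the gene lists, include it unless stated. Control and KO pools of a stage came from the same 4 litters, the labels do not say which pools were littermates, and the model treated all pools as independent.

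The gland expressed Hox genes of paralogue groups 2 to 9 and no gene measured here from groups 1 or 10 to 13. A gene counted as detected when it exceeded each array's 40th percentile of signal, 5.11 to 5.21, on 4 or more arrays. By that rule 19 of 33 Hox genes (57.6%) were detected, against 75% of all genes and 3 of 39 olfactory receptor genes (7.69%), a family known mainly from the nose. Detection reached 5 of 9 Hoxa, 6 of 9 Hoxb, 5 of 7 Hoxc and 3 of 8 Hoxd genes. Of the detected genes, 18 were above the threshold on all 16 arrays, and Hoxd3, at 5.41 on average, was above it on 14. With a threshold at the 60th percentile 16 genes were detected, without Hoxa2, Hoxa3 and Hoxd3.

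**Figure D1:**
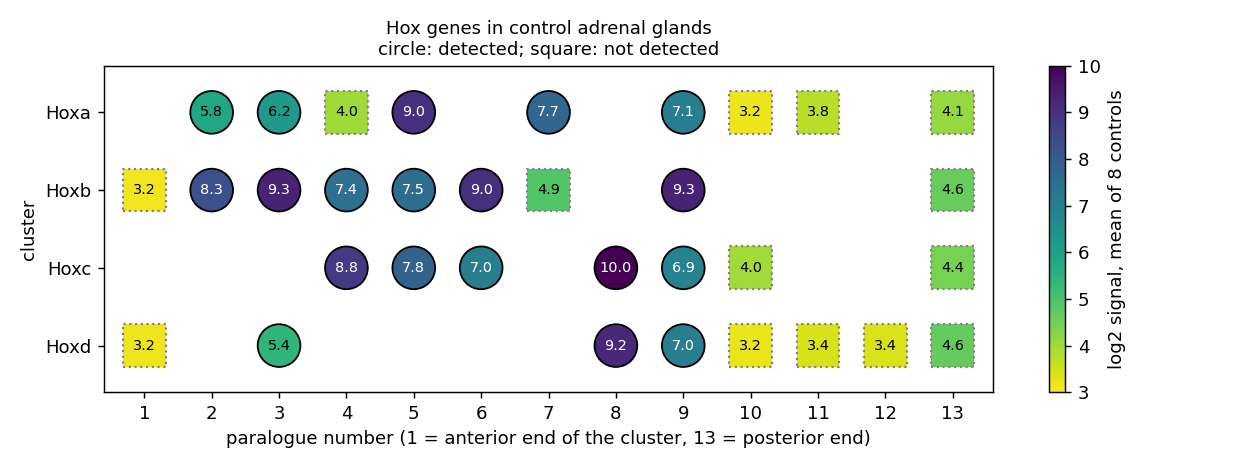
Mean log2 signal of each Hox gene over the 8 control arrays, by cluster (rows) and paralogue number (columns); circles mark detected genes, dotted squares undetected genes, and empty positions have no value here. Circles fill columns 2 to 9 apart from Hoxa4 and Hoxb7, and every measured gene of columns 1 and 10 to 13 is a square.

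The anterior end of the clusters was read by 7 genes. Hoxb1, which acts in the hindbrain, and Hoxd1 had means of 3.27 and 3.23, and neither exceeded 3.59 on an array. All 5 measured genes of groups 2 and 3 were detected. Hoxb3 (9.20) and Hoxb2 (8.40) were the brightest of them, and Hoxa3, which patterns the pharyngeal organs, and Hoxa2, which patterns the second pharyngeal arch, were dim at 6.12 and 5.80.

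In groups 4 to 8, 10 of 12 measured genes were detected. Hoxc8 had the highest mean of all Hox genes, 9.99, with single arrays from 9.66 to 10.29. Hoxd8 (9.28), Hoxb6 (9.27), Hoxa5 (9.01) and Hoxc4 (8.93) followed in these groups. The Hox genes of these groups pattern the neck and thorax, and Hoxa5 is needed for normal lung and airway development. Hoxa7 (7.90), Hoxc5 (7.81), Hoxb5 (7.67), Hoxb4 (7.62) and Hoxc6 (7.12) were lower. Hoxa4, at 4.19 on average, and Hoxb7, at 4.75, were the undetected members of these groups, each above the threshold on 1 array. Neighbours in this order often overlapped. Across the 16 arrays Hoxb6 ran from 8.72 to 10.14, Hoxb9 from 8.79 to 9.89 and Hoxd8 from 8.82 to 9.56.

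The pattern stopped between groups 9 and 10. All 4 genes of group 9 were detected: Hoxb9 at 9.23, Hoxa9 at 7.26, Hoxd9 at 7.13 and Hoxc9 at 7.12, and no array of any of them fell under 6.36. All 10 measured genes of groups 10 to 13 were undetected, with means of 3.24 to 4.53. Hoxa11 (3.81) and Hoxd11 (3.41), whose paralogue group is needed for the metanephric kidney, stayed under the threshold on all 16 arrays. The single value of these 10 genes above the threshold was Hoxc10 in control E16.5 replicate 2, at 5.40, against 3.62 to 4.41 in the other arrays. That is the array with the high 3′ signal. Adjacent kidney was checked in the same libraries: of 12 kidney markers measured, 5 were detected: Eya1 (9.5) and Ret (8.35), and near the threshold Cdh16 (5.43), Nphs1 (5.34) and Six2 (5.13). Pax8, Lhx1, Umod, Slc34a1 and Calb1 were among the 7 that were not. Detected genes on the near side of the threshold were Hoxd3 (5.41), Hoxa2 (5.80) and Hoxa3 (6.12), and undetected ones on the far side were Hoxb7 (4.75), Hoxc13 (4.53) and Hoxd13 (4.52).

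**Figure D2:**
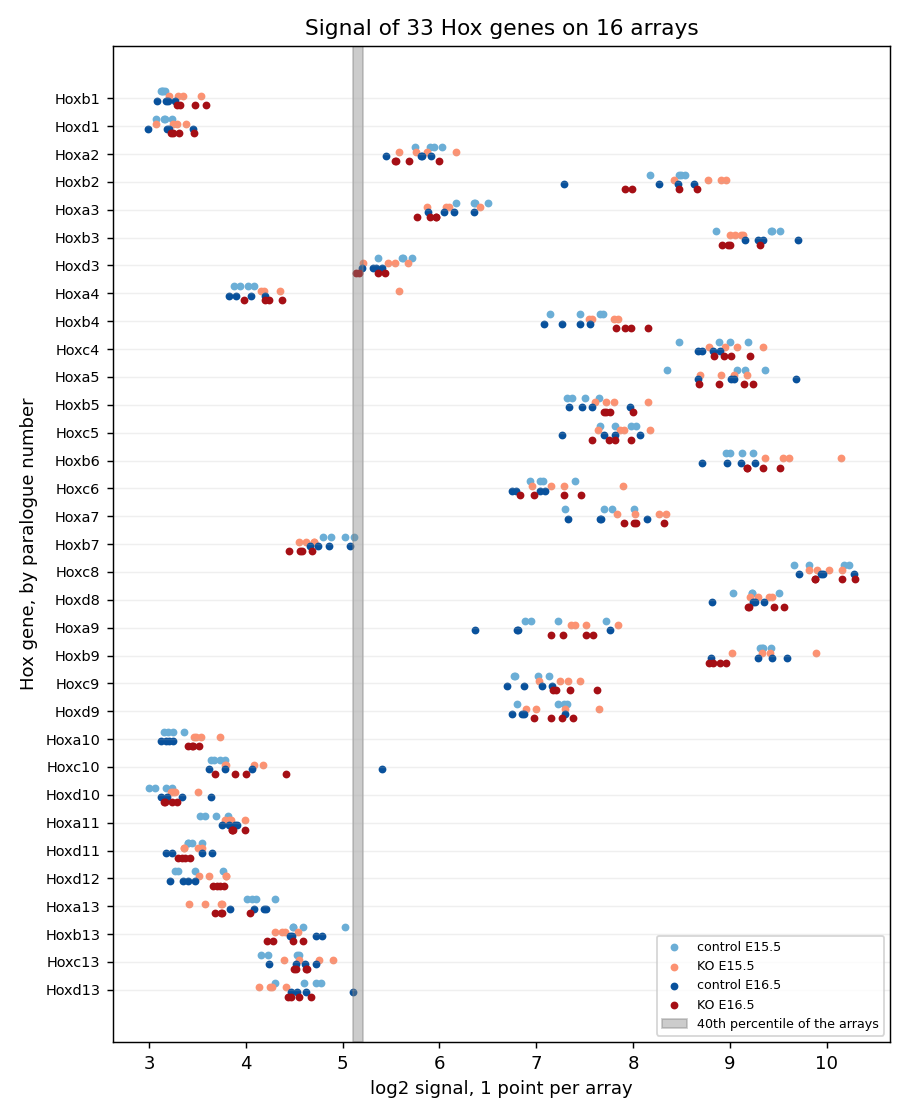
Log2 signal (x axis) of the 33 Hox genes, ordered by paralogue number (y axis), with 1 point per array coloured by group and the detection thresholds of the arrays as a grey band. Genes of groups 10 to 13 lie left of the band except 1 Hoxc10 point at 5.40 and 1 Hoxd13 point at 5.11 within it, under its own array's threshold, and the 4 genes of group 9 lie at 6.36 or above.

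The 18 genes above the threshold on all arrays were so in both genotypes, and few differed between them. Averaged over both stages, 4 of the 19 tested genes were higher in the KO (Hoxb6, Hoxb4, Hoxa7 and Hoxc9) and none was lower, where 6.37% of all genes passed as lower. This split depended on how the arrays were scaled: 2 were higher and 1 lower (Hoxb3) with quantile normalization, 2 higher and 2 lower (Hoxa3 and Hoxb3) with centring on the 75th percentile, and 3 higher and 1 lower (Hoxb3) with centring on the median. Over all genes the calls went from 1881 higher and 869 lower to 1188 and 1086, 937 and 1229, and 1510 and 935 under these scalings. The share is near that of the array as a whole, where 20.2% of the 13642 genes tested passed in either direction and 13.8% passed as higher. The 4 differences were small, from 0.36 to 0.44 on the log2 scale, and tests used limma with adjustment over all 13642 genes. The median difference of the 19 was 0.15 against 0.08 over all genes, and 13 of 19 were positive, against 65.7% of all genes. In whole glands fewer cells of a type and less RNA per cell cannot be told apart.

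At E15.5, 1 of 19 Hox genes passed, Hoxb6, against a background of 5.86% of all genes. The median of the 19 differences was 0.09, with 0.07 over all genes, and 14 were positive, with 64.2% over all genes. At E16.5, again 1 of 19 passed, Hoxb4, against 10.5% of all genes. The median was 0.18, with 0.08 over all genes, and 13 were positive, with 64.3% over all genes. Without control E16.5 replicate 2, 4 of 19 passed at that stage (Hoxb4, Hoxa9 and Hoxc9 higher, Hoxb9 lower), against 12.5% of all genes, of which 8.6% were higher and 3.9% lower. For the mean of both stages that omission gave 6 of 19, against 22.3%: Hoxb4, Hoxb6, Hoxc9, Hoxa9 (0.53) and Hoxb5 (0.34) higher and Hoxa3 (-0.26) lower, with Hoxa7 no longer passing. Hoxb5 also passed without KO E15.5 replicate 1 (0.32). Among the tested genes, the groups did not overlap for 1 Hox gene at E15.5 (Hoxb6), where 14.5% of all genes did not. At E16.5 they did not overlap for 2 (Hoxb4 and Hoxc9), where 15.2% did not. Without control E16.5 replicate 2 the E16.5 groups did not overlap for 6 (Hoxa3, Hoxa9, Hoxb4, Hoxb5, Hoxb9 and Hoxc9), against 24.7% of all genes. With all arrays no tested Hox gene was free of overlap at both stages, against 6.96% of all genes tested. Undetected genes were not counted. Among them Hoxa10 (3.12 to 3.74) and Hoxb1 (3.09 to 3.59) had every KO array above every control at both stages, near the floor. A second, undetected Hoxa10 probe set had differences of -0.09 and -0.53. The dimmest probe sets had a median KO minus control difference, the genotype offset, of 0.10 at E15.5 and 0.07 at E16.5. The share of all undetected genes without overlap is not given, so this is not a result about Hox genes.

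**Figure D3:**
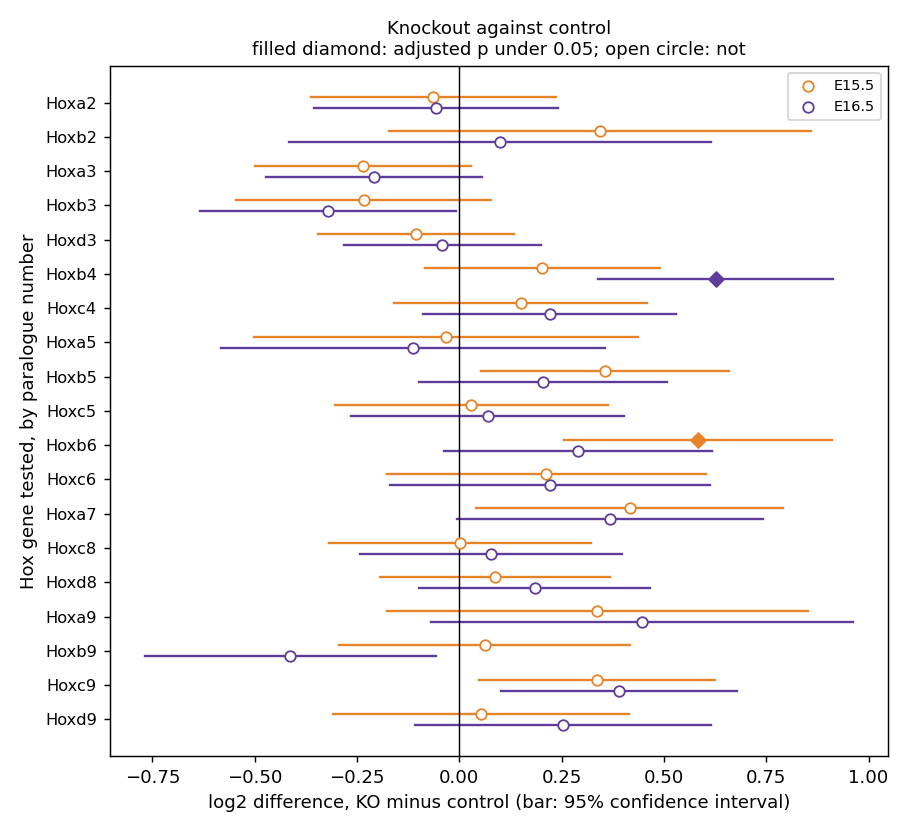
Difference in log2 signal, KO minus control (x axis), of the 19 tested Hox genes ordered by paralogue number, with 95% confidence intervals at E15.5 (orange) and E16.5 (purple). Filled diamonds mark the differences with an adjusted p under 0.05, Hoxb6 at E15.5 (0.58) and Hoxb4 at E16.5 (0.63).

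Hoxb4, a gene of the anterior to middle part of the Hoxb cluster that is also known from blood stem cells, had the clearest difference. Its signals at E16.5 were 7.27, 7.56, 7.45 and 7.08 in the controls and 8.15, 7.83, 7.97 and 7.91 in the KO. Every KO array lay above every control array, and the difference was 0.63 (SE 0.14, adjusted p = 0.00711). At E15.5 the controls were 7.45, 7.15, 7.69 and 7.66 and the KO arrays 7.57, 7.54, 7.85 and 7.80. These groups overlapped, and the difference was 0.20 (95% interval -0.09 to 0.49, adjusted p = 0.479). Averaged over both stages Hoxb4 was higher by 0.41 (SE 0.10, adjusted p = 0.00597). The difference between the stages' effects was 0.42, with an unadjusted p of 0.0428 and an adjusted p of 1. A second Hoxb4 probe set gave 0.36 at E15.5 and 0.67 at E16.5, with unadjusted p-values of 0.0181 and 0.000171. The Hoxb4 calls at E16.5 and over both stages held under every alternative run, with an adjusted p of at most 0.0267 at E16.5 when any 1 array was left out.

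Hoxb6, a thoracic gene of the same cluster, was the call at E15.5. Its controls were 9.13, 8.96, 9.0 and 9.24 and its KO arrays 9.37, 9.54, 10.14 and 9.62. The groups did not overlap, KO replicate 3 was far above the rest, and the difference was 0.58 (SE 0.15, adjusted p = 0.0343). At E16.5 the controls were 9.26, 9.11, 8.97 and 8.72 and the KO arrays 9.52, 9.35, 9.18 and 9.18. The highest control lay within the KO range, and the difference was 0.29 (95% interval -0.04 to 0.62, adjusted p = 0.271). Over both stages Hoxb6 was higher by 0.44 (SE 0.11, adjusted p = 0.00957), and that call held under every alternative run. The call at E15.5 was less firm. It was lost when control replicate 1, 2 or 3 or KO replicate 3 or 4 of that stage was left out, with differences of 0.60, 0.54, 0.56, 0.42 and 0.60 and adjusted p-values of 0.0681, 0.0978, 0.0881, 0.092 and 0.065. It was also lost under all 3 other scalings of the arrays, with adjusted p-values of 0.0822, 0.0716 and 0.0561.

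Hoxc9, a gene of the lower thorax, was higher over both stages by 0.36 (SE 0.10, adjusted p = 0.0133). At E15.5 its controls were 6.78, 7.02, 7.13 and 6.78 and its KO arrays 7.03, 7.32, 7.24 and 7.46. At E16.5 the controls were 7.06, 7.17, 6.87 and 6.69 and the KO arrays 7.35, 7.63, 7.21 and 7.17. The groups overlapped at E15.5 and were separate by a narrow margin at E16.5. The difference was 0.34 at E15.5 (adjusted p = 0.178) and 0.39 at E16.5 (adjusted p = 0.0801), and without control E16.5 replicate 2 the latter was 0.46 (adjusted p = 0.0408). The call over both stages was lost with quantile scaling (0.30, adjusted p = 0.0529) and with centring on the 75th percentile (0.28, adjusted p = 0.0731). Subtracting the genotype offset lost it too (0.28, adjusted p = 0.0577).

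Hoxa7, another thoracic gene and one of the reported targets of miR-196, was higher over both stages by 0.39 (SE 0.13, adjusted p = 0.0361). At E15.5 the controls were 7.78, 7.70, 8.01 and 7.30 and the KO arrays 7.83, 8.02, 8.27 and 8.34. At E16.5 the controls were 8.14, 7.33, 7.66 and 7.67 and the KO arrays 8.01, 8.32, 8.03 and 7.91. A high control array overlapped the KO range at each stage, and neither stage passed alone (0.42, adjusted p = 0.204, and 0.37, adjusted p = 0.217). The call over both stages did not survive 10 of 16 single omissions, where the difference ran from 0.33 to 0.40 and the adjusted p from 0.0502 to 0.0739. These arrays were control replicates 2 and 4 and KO replicates 3 and 4 at E15.5, and control replicates 2, 3 and 4 and KO replicates 1, 2 and 3 at E16.5. It was also lost with quantile normalization (0.31, adjusted p = 0.104) and with centring on the 75th percentile (0.31, adjusted p = 0.11) or on the median (0.37, adjusted p = 0.0614). Subtracting the genotype offset lost the Hoxa7 call as well (0.31, adjusted p = 0.109).

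**Figure D4:**
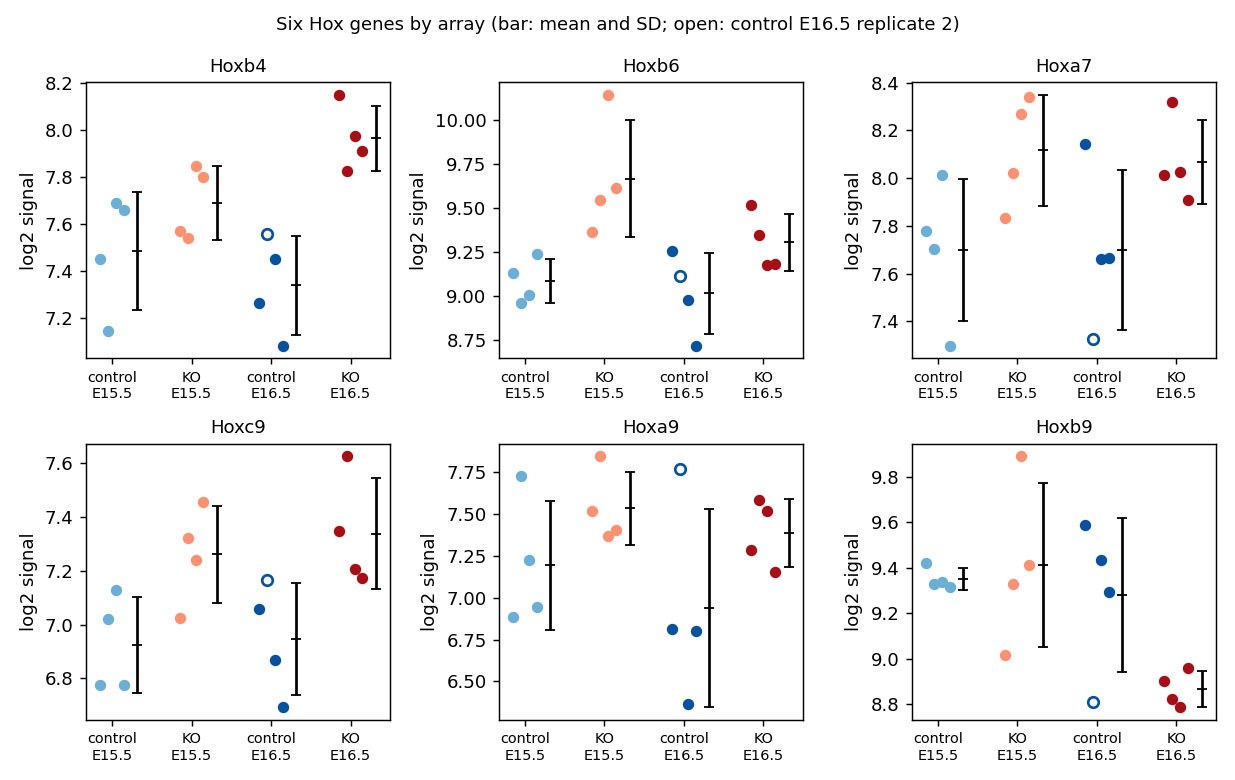
Log2 signal of 6 Hox genes on each array by group, with the group mean and SD beside the points and control E16.5 replicate 2 drawn as an open circle. The KO points of Hoxb4 at E16.5 lie from 7.83 to 8.15, above all 4 controls, and the open circle is the control farthest from the other 3 for Hoxa9 (7.76) and Hoxb9 (8.81) at that stage.

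Hoxa9 and Hoxb2 varied most within groups, with a within-group SD of 0.38 each, against a median of 0.22 for the tested Hox genes and 0.20 for all genes. Hoxa9, a posterior gene known from blood cell development and leukaemia, had controls of 6.88, 7.72, 7.22 and 6.94 and KO arrays of 7.52, 7.84, 7.36 and 7.40 at E15.5. At E16.5 its controls were 6.81, 7.76, 6.36 and 6.80 and its KO arrays 7.28, 7.58, 7.52 and 7.15. The E16.5 control at 7.76 was replicate 2, the array with the high 3′ signal, and it was the highest of all 8 values. With it the difference was 0.45 (95% interval -0.07 to 0.96, adjusted p = 0.286), and without it the difference was 0.72 (adjusted p = 0.0227). A detected second Hoxa9 probe set had the opposite sign over both stages, -0.16.

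Hoxb2, a hindbrain segment gene, had controls of 8.48, 8.50, 8.17 and 8.54 and KO arrays of 8.42, 8.77, 8.96 and 8.91 at E15.5. At E16.5 its controls were 8.63, 7.28, 8.47 and 8.27 and its KO arrays 7.99, 7.92, 8.47 and 8.66. The value of 7.28 was again control replicate 2. The differences were 0.34 (95% interval -0.17 to 0.86) and 0.10 (95% interval -0.42 to 0.62), and neither passed. Without that array the difference at E16.5 was -0.19.

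Hoxb9 was singled out after its values were seen, because it differed in the other direction at the later stage. At E16.5 its controls were 9.59, 8.81, 9.43 and 9.29 and its KO arrays 8.90, 8.82, 8.79 and 8.96. Control replicate 2 lay among the KO arrays, and the other 3 controls lay above all of them. The difference was -0.41 (95% interval -0.77 to -0.06, adjusted p = 0.137), and without that array it was -0.57 (adjusted p = 0.0212). At E15.5 the controls were 9.42, 9.33, 9.34 and 9.32 and the KO arrays 9.02, 9.33, 9.89 and 9.41, with a difference of 0.06 (95% interval -0.29 to 0.42). From E15.5 to E16.5 the KO arrays differed by -0.54 (unadjusted p = 0.00505, adjusted p = 0.192), and the test of the change in effect between stages gave -0.47 (unadjusted p = 0.0624).

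By position, the tested genes of groups 2 and 3 leaned below zero and those of groups 4 to 8 above it, although few passed. Over all genes 64.2% of differences were positive at E15.5 and 64.3% at E16.5. Of the 5 genes of groups 2 and 3, 4 had negative differences at both stages (Hoxa2, Hoxa3, Hoxb3 and Hoxd3), and this count was the same under all 3 other scalings. Some were small: Hoxa2 had -0.06 at each stage, and Hoxd3 had -0.11 at E15.5 and -0.04 at E16.5. Of the 10 genes of groups 4 to 8, 9 had positive differences at each stage, with 7 or more under the other scalings. Some of these were small too: at E15.5 Hoxc8 had 0.00 and Hoxc5 had 0.03. Their signs changed in 9 and 6 of 19 alternative runs at that stage. Of the 4 genes of group 9, all were positive at E15.5 and 3 at E16.5, but only 2 at E15.5 with quantile scaling or 75th percentile centring. The medians over both stages were -0.07 for groups 2 and 3, 0.20 for groups 4 to 8 and 0.26 for group 9, beside 0.08 for all genes. Other detected probe sets had the opposite sign at both stages for Hoxa3 (0.35 and 0.24), Hoxa5 and Hoxa9. They had the same sign for Hoxb3, Hoxb4, Hoxc5, Hoxc6 and Hoxd8. Differences between these paralogue groups were not tested.

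Between E15.5 and E16.5 the Hox genes showed no passing change in either genotype. None of 19 passed in the controls (0.0953% of all genes did) and none in the KO (0.902% of all genes did). At an unadjusted p under 0.05 there was 1 Hox gene in the controls, Hoxd3 (-0.26), against 7.85% of all genes. In the KO there were 2, Hoxb6 (-0.36) and Hoxb9 (-0.54), against 9.51%. In each genotype 14 of the 19 differences were negative, while 51.6% and 51.7% of all genes had positive ones. None of 19 passed the limma test of a change in KO effect between stages, as for all genes (0%). At an unadjusted p under 0.05 that test counted 1 Hox gene, Hoxb4, and 258 of all genes (1.89%).

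The reported targets of the microRNAs shown above were read next. Of the 4 reported miR-196 targets, Hoxb8 was not analysed here and the other 3 were tested. Hoxa7 was the 1 that passed, over both stages, and none of the 3 did under any of the other 3 scalings or without control E16.5 replicate 2. Hoxc8 signals at E15.5 were 9.82, 10.18, 10.23 and 9.66 in controls and 9.82, 10.02, 9.90 and 10.16 in the KO. The groups overlapped throughout and the difference was 0.00 (95% interval -0.32 to 0.32), with 0.08 (95% interval -0.24 to 0.40) at E16.5. For Hoxd8 it was 0.09 (95% interval -0.19 to 0.37) and 0.18 (95% interval -0.10 to 0.47). With all arrays these intervals leave room for differences of up to 0.40 in Hoxc8 and 0.47 in Hoxd8. Without control E16.5 replicate 2 the E16.5 differences were 0.18 for Hoxc8 and 0.07 for Hoxd8. The intervals of that fit are not given here, and the limit for Hoxc8 may be higher.

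Of the 3 reported miR-10 targets measured here, Hoxd10 was undetected (3.00 to 3.64) and Hoxa3 and Hoxb3 were tested. Neither passed, and both had negative differences. Hoxb3 signals were 9.44, 9.52, 9.43 and 8.86 in controls and 9.14, 9.12, 9.05 and 9.0 in the KO at E15.5. At E16.5 they were 9.15, 9.71, 9.35 and 9.29 in controls and 9.31, 9.01, 8.92 and 8.98 in the KO. All but 1 control exceeded every KO array at E15.5, and 1 KO array lay among the controls at E16.5. The difference over both stages was -0.28 (95% interval -0.50 to -0.06, adjusted p = 0.0724), and a second, detected Hoxb3 probe set gave -0.05. For Hoxa3 it was -0.22 (95% interval -0.41 to -0.04, adjusted p = 0.0884), and a second, detected Hoxa3 probe set gave 0.29. Hoxb3 passed as lower with each of the 3 other scalings and Hoxa3 with centring on the 75th percentile and without control E16.5 replicate 2. Both also passed as lower with the genotype offset subtracted, Hoxa3 at -0.31 (adjusted p = 0.0225) and Hoxb3 at -0.36 (adjusted p = 0.0228). Array weights in limma gave the same calls (-0.25, adjusted p = 0.00591, and -0.33, adjusted p = 0.00174). Single omissions also made Hoxb3 pass without control E15.5 replicate 4 (-0.35), control E16.5 replicate 1 (-0.31) or KO E16.5 replicate 1 (-0.32), and Hoxa3 without KO E15.5 replicate 3 (-0.27).

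The Hox cofactors were expressed alongside, with 10 of 11 measured genes detected. None passed at E15.5, and 2 rose at E16.5 and over both stages: Pbx3 by 0.43 at E16.5 (adjusted p = 0.0107) and Pknox2, also called Prep2, by 0.70 (adjusted p = 0.0293). The 2 of 10 stand beside 10.5% of all genes at E16.5 and 20.2% over both stages. The other 8 did not pass, among them Meis1 (0.01 over both stages), Meis2 (-0.09) and Pknox1 (0.02), and the median over both stages was 0.10. With centring on the 75th percentile neither call was made at E16.5, and both held over both stages. Nr5a1, the reported target of the Hox, Pbx and Prep complex, did not pass. Its signal ran from 10.39 to 11.68 in controls and from 10.92 to 12.38 in KO at E15.5, and from 10.45 to 11.66 and 10.87 to 11.56 at E16.5. The differences were 0.56 (SE 0.33, adjusted p = 0.396) and 0.19 (SE 0.33, adjusted p = 0.797), and the groups overlapped.

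Among the regulators that hold Hox genes off or on, all 19 measured Polycomb genes and all 16 Trithorax genes were tested. Over both stages 5 Polycomb genes rose and none fell: Mtf2 by 0.45, Cbx2 by 0.45, Ezh1 by 0.36, Cbx7 by 0.30 and Ezh2 by 0.26. Cbx2 and Cbx7 are readers of the H3K27 methyl mark that Ezh1 and Ezh2 write, and Mtf2 helps to bring the writer complex to DNA. The 5 of 19 stand beside a background of 20.2%, and the median was 0.13 against 0.08. With quantile scaling 4 rose and Bmi1 fell over both stages, and with centring on the 75th percentile 3 rose and Bmi1 fell. At E15.5, 3 rose (Cbx2, Cbx7 and Mtf2), against 5.86% of all genes, and 3 at E16.5 (Cbx2, Ezh1 and Mtf2), against 10.5%. With quantile scaling 2 rose at each stage, and with centring on the 75th percentile only Mtf2 did. One Trithorax gene, Kmt2b, a writer of H3K4 methylation, rose over both stages, by 0.33, and it passed in none of the other scalings, where Wdr5 fell in 2 of 3. Of 7 caudal and retinoid regulators of Hox genes 1 was detected, Cyp26b1, a retinoic acid degrading enzyme, and it did not pass. The noncoding Hoxb5os and Hoxd3os1, antisense to Hox genes, were detected and did not pass either (-0.13 and -0.21 over both stages).

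**Figure D5:**
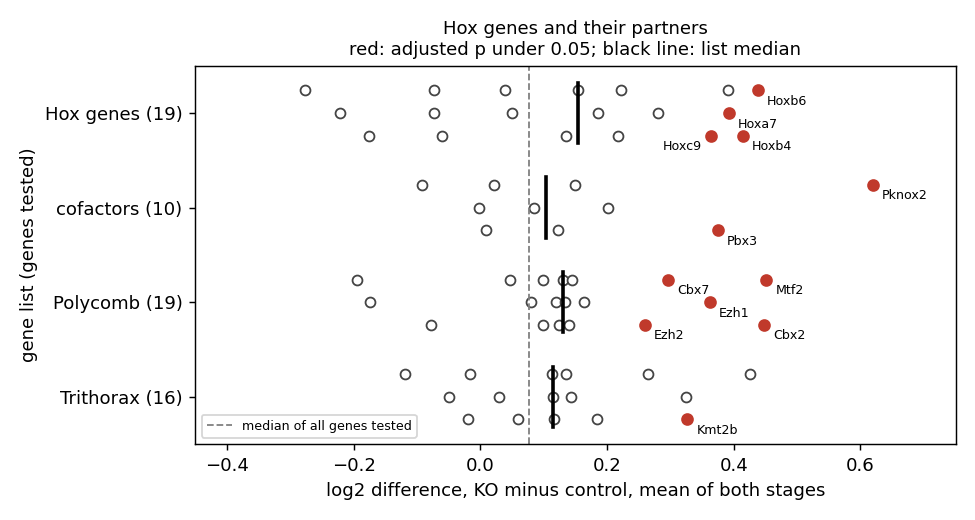
Difference in log2 signal, KO minus control, averaged over both stages (x axis) for the tested Hox genes, their cofactors, Polycomb and Trithorax genes (rows, with the number tested), with genes past an adjusted p of 0.05 in red and list medians as black lines. The 4 Hox genes that passed lie between 0.36 and 0.44, and the list medians of 0.10 to 0.15 lie to the right of the all-gene median of 0.08.

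Cell type markers moved in the same glands. Over both stages 6 of 11 cortex markers fell, and the mean signal of the list at E16.5 was 12.40 to 12.74 in controls and 11.85 to 12.20 in KO. All 12 macrophage markers rose, from 7.84 to 8.37 in controls to 9.02 to 9.46 in KO at E16.5, and 5 of 10 chromaffin markers rose, from 10.35 to 10.94 to 10.98 to 11.31. At E15.5, 3 cortex markers fell, 7 macrophage markers rose and no chromaffin marker passed. Over all genes 5.86% passed at E15.5, and over both stages 20.2% did, 13.8% as higher and 6.37% as lower. The capsule and mesenchyme list ran from 9.80 to 10.10 in controls and from 10.14 to 10.44 in KO at E16.5, with 1 of 12 genes passing over both stages (Wt1). The Schwann lineage list ran from 8.04 to 8.25 and from 8.29 to 8.77, with 1 of 5 passing (Sox10), and 2 of 5 gonad markers tested were higher (Amh and Foxl2). Over both stages 5 cortex and 5 chromaffin markers passed with quantile normalization, and 8 and 2 with centring on the 75th percentile. Sox10 and Amh passed in neither of these scalings, and all 12 macrophage markers passed in both. The part of these lists in the Hox differences was not tested. The kidney list, at 5.16 to 5.31 in controls and 5.12 to 5.18 in KO at E16.5, had no gene that passed.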

How the data were processed

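RNA of 16 pools of fetal adrenals was hybridised to Affymetrix arrays. The log2 values were deposited by the authors as RMA-normalized signals, per the submitters' processing notes; versions are not given in the sources used here. RMA compresses dim probe sets, which understates their differences. Platform annotation named the genes (34945 probe sets with 1 symbol, 932 with several, 9160 with none), and 34741 symbols were matched through gene identifiers. The probe set with the highest mean stood for a gene, and 13642 of 18193 genes that exceeded the 40th percentile of 4 or more arrays were tested.

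All 16 arrays entered 1 limma model (R 4.3.3, limma 3.58.1) with 4 group means and moderated variances. P-values were adjusted by Benjamini-Hochberg over 13642 genes, with a threshold of 0.05, and the procedure was tested on simulated data. Members described in full were those that passed and the 3 tested genes with the widest range; others were chosen after their values were seen. Hox members, gene lists and tests were chosen with earlier results of these data known. The labels do not say whether a replicate number marks a litter, and the main model did not pair the pools. Sequences came from RefSeq tables. The number of arrays limits the precision.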

Additional observations from a re-analysis of the deposited data

Results flagged for a closer look

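Of 76 groups of 4 arrays checked for the 19 tested Hox genes, 2 held an array apart from its group, and chance gives about 1 in 20. For Hoxb2 in control E15.5 replicate 3 the log2 signal stood at 8.17 and the other 3 arrays at 8.48 to 8.54, a gap of 0.833 of the group's range. For Hoxb3 in control E15.5 replicate 4 it stood at 8.86 and the others at 9.43 to 9.52, a gap of 0.863 of the range.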

How the results depend on the processing

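Counts of Hox genes passing moved as follows. At E15.5 the 1 call became 0 with quantile normalization, centring on the 75th percentile or on the median, only the groups compared in the fit, the genotype offset of dim probe sets (0.10 at E15.5) subtracted, or limma's treat with that offset, and 3 with no filter. At E16.5 the 1 call became 3 with no filter and 10 with array weights, and over both stages the 4 became 10 and 9. With no filter all 33 genes were tested, and 2, 2 and 5 of these calls were genes otherwise undetected. Array weights ran from 0.193 to 10.4, and they gave 1 call in each day comparison in place of 0. The share of all genes that passed with no filter or with array weights is not given here. The Hox counts under those settings therefore have no background beside them and are not a result about Hox genes. Leaving out 1 array gave 0 to 1 at E15.5, 1 to 4 at E16.5 and 3 to 6 over both stages, 0 to 0 in the other comparisons, and 19 to 19 genes detected. With the replicate number as a block 2 passed at E16.5 (Hoxc9 joined Hoxb4), 3 over both stages (Hoxa7 was lost, adjusted p = 0.0741), and calls over all genes went from 1439 to 1263 and from 2750 to 2609. The pools of 1 number did not vary together in every pair (correlations from -0.39 to 0.45). With so few pools this cannot tell whether a number marks a litter. Of 1207 values of single genes under 27 settings, 1144 kept their side of the threshold, 30 lost a call, 33 gained one and none with a call turned its sign. Over all genes, calls at E15.5 split 503 higher to 297 lower, 373 to 350 with quantile normalization and 276 to 372 with centring on the 75th percentile; the Hox genes with a positive difference went from 14 to 10 in both. Dim Hox genes lie near the floor, where differences are compressed, although some of them passed with no filter.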

Other observations

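Single arrays ran high or low across many Hox genes. KO E15.5 replicate 3 was the highest of its 4 arrays for 11 of the 19 tested Hox genes, among them Hoxb6, Hoxb2 and Hoxb9, and it was the highest for 30.2% of all genes tested. KO E15.5 replicate 1 was the lowest of the same group for 12 of 19, against 26.6% of all genes. Control E16.5 replicate 4 was the lowest of its group for 10 of 19, against 34% of all genes. These counts were made after the values were seen, and the genes of a cluster share each array.

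Other probe sets of the Hox genes gave a second reading. There were 15 for 11 genes. Of 10 that were detected and belonged to detected genes, 7 had the same sign of the KO difference over both stages as the probe set used and 3 the opposite sign (Hoxa3, Hoxa5 and Hoxa9). The 3 that belonged to undetected genes were undetected as well.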
